A study of Mus musculus with 25 samples.

Results

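The Ly49 receptor genes Klra1, Klra3, Klra5, Klra7 and Klra9 were followed through thymic invariant natural killer T (iNKT) cells. Each gene was represented by the transcript cluster (the array's probe set for 1 gene) that carried its symbol and no other in the array's probe annotation, or by the one with the highest mean where a symbol had several. A single-symbol cluster was named for 4 of the 5 genes, each with 1 cluster, out of 22206 clusters measured and 19572 with 1 symbol. No cluster was named for Klra1, which was therefore not analysed here. A further 6 clusters carried other Klra symbols and were used for comparison.

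RNA of sorted cells from C57BL/6 mice had been hybridised to Clariom S arrays, 25 in all. Mice lacking both Mst1 and Mst2 (dKOMst) gave 2 arrays of S1_S2 cells and 1 of S3 cells, mice lacking Mst1 alone (Mst1KO) gave 4 and 5, and wild-type mice (WT) gave 6 and 7. S1_S2 holds the NK1.1-negative cells of developmental stages 1 and 2, and S3 the CD44-positive, NK1.1-positive cells of stage 3. All groups were sorted as CD24-negative cells positive for TCR beta and for the CD1d tetramer. The type of allele, any Cre driver, the age of the mice and whether each array came from its own mouse are not stated in the labels, so the p-values measure the spread between these arrays. Mst1 and Mst2, encoded by Stk4 and Stk3, are the kinases at the top of the Hippo pathway, and the study asked how Hippo signalling bears on the maturation of iNKT cells.

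Ly49 proteins are C-type lectin-like receptors of natural killer (NK) cells and of some T cells in the mouse. Most bind MHC class I molecules and inhibit the cell through a cytoplasmic ITIM motif that recruits the phosphatase SHP-1, while a few lack that motif and signal through the adaptor DAP12. Their genes lie side by side in the NK gene complex on chromosome 6, and each cell turns on only some of them, so that a population is a mosaic. In NKT cells they appear late in maturation. Klra3 encodes Ly49C, which binds H-2K molecules, and Klra9 encodes its close relative Ly49I. Klra7 encodes Ly49G, an inhibitory receptor for H-2D molecules, and Klra5 encodes Ly49E, the receptor typical of fetal NK cells.

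The start sites of the 4 measured genes show how alike they are and where Klra7 stands apart from the others among them. The stretches below are 160 bases each from the RefSeq promoter windows (build GRCm38.p6, 250 bases before to 50 after the annotated start), each beginning 90 bases before a block that the 4 genes share but for 1 base. They read 5′ to 3′ on the minus strand of chromosome 6, with the letters TTGCAATA in capitals.
Klra3 (chr6:130337582-130337741): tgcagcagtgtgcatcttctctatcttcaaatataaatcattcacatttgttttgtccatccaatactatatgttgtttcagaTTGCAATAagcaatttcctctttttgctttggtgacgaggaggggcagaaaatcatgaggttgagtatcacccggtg
Klra5 (chr6:129913251-129913410): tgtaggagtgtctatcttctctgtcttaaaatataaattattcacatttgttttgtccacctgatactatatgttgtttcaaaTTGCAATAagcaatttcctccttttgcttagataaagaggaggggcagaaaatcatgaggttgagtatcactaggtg
Klra7 (chr6:130233348-130233507): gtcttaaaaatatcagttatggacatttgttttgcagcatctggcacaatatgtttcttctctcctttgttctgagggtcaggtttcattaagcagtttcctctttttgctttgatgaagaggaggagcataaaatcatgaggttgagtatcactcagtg
Klra9 (chr6:130193087-130193246): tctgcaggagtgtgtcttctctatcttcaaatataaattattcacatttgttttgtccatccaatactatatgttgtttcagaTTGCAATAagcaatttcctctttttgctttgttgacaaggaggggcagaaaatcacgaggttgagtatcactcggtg
In global alignments, the Klra3 and Klra9 stretches were identical at 93.8% of columns and Klra5 matched them at 88.8% and 87.7%. The Klra7 stretch matched Klra3, Klra5 and Klra9 at 64.4%, 64.1% and 65.2%. TTGCAATA occurred in the Klra3, Klra5 and Klra9 stretches and not in that of Klra7, and was found, on either strand, in 0.597% of all 32851 promoter windows. Of 11 Klra genes with a window only 4 held it, Klra6 besides those named, so most of the family lacks it as Klra7 does. GAGGTTGAGTATCAC, the longest run of letters in all 4 stretches, lies further downstream and occurred in 0.0244% of windows and in 6 of the 11 Klra genes. The CTTTG core bound by TCF and LEF factors, found in 53.9% of windows, had 2 matches in the Klra7 stretch, 1 each in those of Klra3 and Klra9 and 0 in that of Klra5. TTGCAATA and the shared run were chosen after the sequences had been compared, and a match describes the letters only.

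Values are log2 expression after RMA, the normalization applied by the authors. An array reading was taken as above background where it exceeded the median of that array's 5222 negative control items, which lay between 6.19 and 6.59. Clusters differ in their probes, so levels are compared between groups for 1 cluster and not between genes. The probe sequences were not used here, and whether a cluster also takes up RNA of a near-identical Ly49 gene or of the pseudogenes among them was not tested. Differences come from a limma model of all clusters and arrays with 6 group means and an additive term for 2 sets of arrays. The group labels restart in the order of the sample numbers, which gives a first set of 16 arrays with all Mst1KO samples and a second of 9 with all dKOMst samples, and WT arrays lie in both. The labels name no batch. A difference was called at a Benjamini-Hochberg adjusted p under 0.05 over all clusters.

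The labelled genotypes and gates were checked first. Stk4 read 9.22 to 9.40 on the 4 Mst1KO S1_S2 arrays, against 10.18 to 10.74 on the WT S1_S2 arrays (log2 difference -0.92 ± 0.16, limma adjusted p = 0.00592). At S3 the groups overlapped, at 9.43 to 10.13 in Mst1KO and 9.69 to 10.74 in WT (difference -0.35 ± 0.15, limma adjusted p = 0.152). The dKOMst S1_S2 arrays read 10.27 and 9.63, the first of them within the range of all WT S1_S2 arrays and both below the 10.54 to 10.74 of the WT arrays of their set (difference -0.74 ± 0.20, limma adjusted p = 0.0829). Where the Stk4 probes lie relative to the deletion is not known here, so a residual signal checks nothing. No single-symbol cluster was named for Stk3. Klrb1c, which encodes the sorting marker NK1.1, averaged 12.53 ± 0.10 at S3 and 9.32 ± 0.65 at S1_S2 in WT (SD, n = 7 and 6). Of the iNKT and T cell identity list, all 9 measured genes lay above background on every array, and 2 rose and 4 fell between the WT stages. The 4 arrays of Mst1KO replicates 3 and 4 at each stage lacked the Y-linked signal of the others.

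All 4 measured receptor genes rose with the step to NK1.1-positive cells in WT, and by 5.57 to 20.1 times on the linear scale. Klra9 and Klra5 had the largest fitted rises, in an order that turned on leaving out 1 array, followed by Klra7 and Klra3. Of all clusters, 8.18% were called higher and 8.75% lower in this comparison, and the median log2 difference was 3.79 over the 4 genes and 0.01 over all clusters. Fewer cells with the receptor and less RNA per cell cannot be told apart in RNA of sorted populations.

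**Figure D1:**
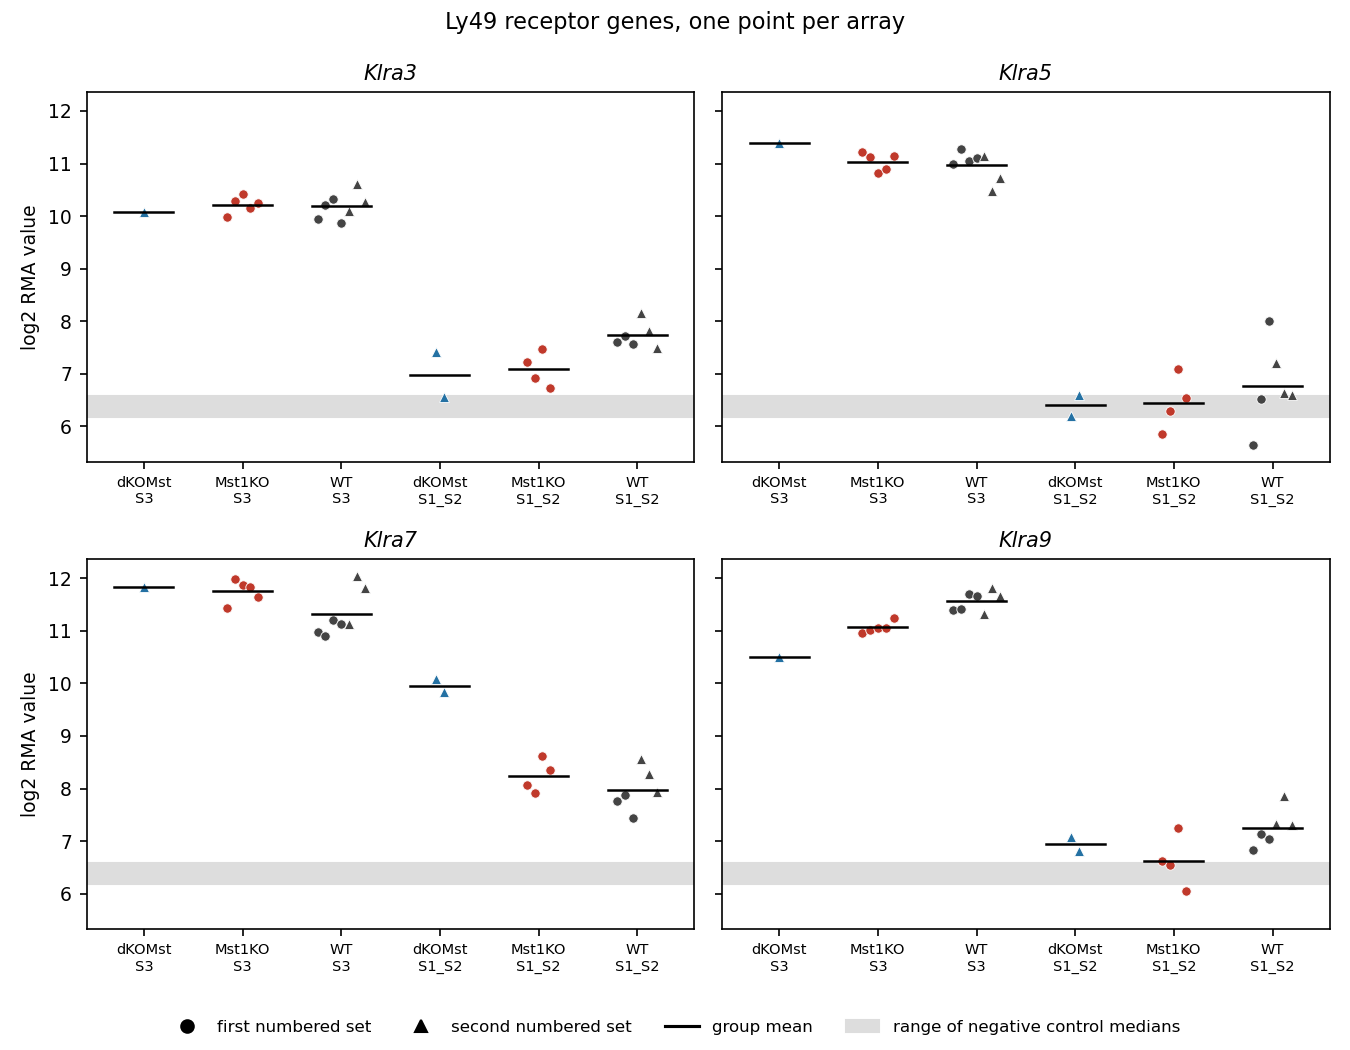
Log2 RMA value of Klra3, Klra5, Klra7 and Klra9 on each of the 25 arrays, in panels by gene and columns by group, with circles for the first and triangles for the second numbered set of arrays, a bar at the group mean and a grey band over the range of the arrays' negative control medians. Every S3 array lies above every S1_S2 array for each gene, and the 2 dKOMst S1_S2 arrays stand above the other S1_S2 arrays for Klra7 only.

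Klra9 read 11.31, 11.39, 11.41, 11.66, 11.67, 11.70 and 11.81 on the WT S3 arrays, against 6.84, 7.04, 7.14, 7.30, 7.33 and 7.85 on the WT S1_S2 arrays. The groups lay more than 3 log2 units apart at their nearest points. The fitted difference was 4.33 ± 0.15 (SE; limma adjusted p = 7.26e-16), a rank of 3 by p-value among all clusters, and it was 4.53 within the first and 4.10 within the second numbered set.

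Klra5 had a lowest value of 10.48, a median of 11.05 and a highest of 11.27 on the WT S3 arrays, against 5.65, 6.62 and 8.01 on the WT S1_S2 arrays. Its S1_S2 readings were the most spread of the 4 genes, with an SD of 0.78. The difference was 4.19 ± 0.25 (limma adjusted p = 1.3e-11). The highest S1_S2 reading came from WT replicate 3, on which Klrc1 and Klrd1, the genes of the NKG2A and CD94 receptor chains, also read 8.49 and 9.94, against at most 5.92 and 9.25 on the other WT S1_S2 arrays. Without that array the Klra5 difference was 4.47 ± 0.21.

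Klra7 had a lowest value of 10.89, a median of 11.13 and a highest of 12.04 on the WT S3 arrays, against 7.44, 7.90 and 8.56 on the WT S1_S2 arrays, a difference of 3.38 ± 0.14 (limma adjusted p = 3.32e-14). Klra3 had 9.88, 10.22 and 10.61 at WT S3, against 7.50, 7.67 and 8.16 at WT S1_S2, a difference of 2.48 ± 0.14 (limma adjusted p = 4.34e-12). Neither gene had overlapping stages. Of the 48 readings of the 4 genes on S1_S2 arrays of all genotypes, 43 exceeded the negative control median, and 4 of the other 5 were from Klra5. Klra5 was above background on 5 of 6 WT and 2 of 4 Mst1KO S1_S2 arrays and Klra9 on 6 of 6 and 3 of 4. The low stage of both thus lay near background in Mst1KO, and that of Klra5 also in WT, at a median of 6.62. Fitted differences against these low stages can understate the change.

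The rise was also present without Mst1. In Mst1KO cells the differences between S3 and S1_S2 were 4.45 ± 0.17 for Klra9, 4.59 ± 0.30 for Klra5, 3.52 ± 0.17 for Klra7 and 3.13 ± 0.17 for Klra3, with limma adjusted p of at most 2.02e-10. The values of Klra9 and Klra5 are taken against a low stage near background. All 4 were called higher, where 5.58% of all clusters were higher and 4.62% lower. The median difference was 3.98 over the 4 genes and -0.04 over all clusters. Klra3 read 9.99, 10.15, 10.25, 10.29 and 10.41 on the Mst1KO S3 arrays, against 6.73, 6.93, 7.22 and 7.48 on the Mst1KO S1_S2 arrays. Klra9 read 10.95, 11.02, 11.05, 11.05 and 11.25 at Mst1KO S3, against 6.05, 6.54, 6.62 and 7.25 at Mst1KO S1_S2.

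Whether the rise differed between genotypes was tested as the Mst1KO effect at S3 minus that at S1_S2. No member passed in limma, where 0.0901% of all clusters were called higher and 0.0675% lower. At an unadjusted limma p under 0.05 there was 1 of 4 members, beside 946 clusters higher and 1161 lower out of 22206. Klra3 had the largest value, 0.65 ± 0.22 (limma adjusted p = 0.331, unadjusted p = 0.00659), and Klra5, Klra7 and Klra9 had 0.40 ± 0.39, 0.14 ± 0.22 and 0.12 ± 0.23 (adjusted p of at least 0.779).

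The other Klra clusters showed which parts of the family took part. Of 20 other family genes listed, 6 had a cluster, and 4 of these were higher at S3 than at S1_S2 in both WT and Mst1KO. Klra6 (Ly49F) averaged 9.68 ± 0.26 at WT S3 and was not above background on any of the 6 WT S1_S2 arrays, which makes it at least 9.82-fold higher (limma adjusted p = 2.02e-13). Such a bound takes the mean of the brighter group against the dimmer group's own value or its negative control median, whichever was higher. Klra10 (Ly49J) averaged 9.12 ± 0.21 and 5.72 ± 0.52 at WT S3 and S1_S2, and Klra13-ps, a pseudogene, 10.84 ± 0.14 and 8.18 ± 0.44 (SD, n = 7 and 6). Klra10 was above background on 1 of those 6 WT S1_S2 arrays, so its fitted difference of 3.43 ± 0.18 is one of readings mostly at background, while Klra13-ps was above it on all 6 and rose by 2.67 ± 0.16.

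In Mst1KO, Klra13-ps rose by 3.32 ± 0.19 (limma adjusted p = 2.05e-11). Klra10 was not above background on any Mst1KO S1_S2 array and was at least 4.9-fold higher at S3 (limma adjusted p = 3.52e-11). Klra6 was above background on 1 of 4 Mst1KO S1_S2 arrays and had a fitted difference of 3.99 ± 0.21 (limma adjusted p = 6.73e-12). Klra16 rose by less, to S3 means of 6.81 in WT and 6.93 in Mst1KO, near background. The identifier of its cluster marks it as unmapped, and the gene had no place in the RefSeq order along chromosome 6. What this cluster reads is therefore not known here. Klra16 was at least 1.34-fold higher in WT (limma adjusted p = 0.000284) and in Mst1KO (limma adjusted p = 0.0248). The Mst1KO call was lost, at limma adjusted p of 0.0511 to 0.0774, on leaving out S1_S2 replicate 2 or 3 or S3 replicate 2, 3 or 5, and at 0.146 on the arrays with Y-linked signal alone. Klra2 (Ly49B) and Klra17 (Ly49Q), receptors known from myeloid and plasmacytoid dendritic cells, were not above background on any of the 25 arrays. They differed by 0.04 ± 0.12 and 0.23 ± 0.11 between WT stages (limma adjusted p = 0.896 and 0.161).

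**Figure D2:**
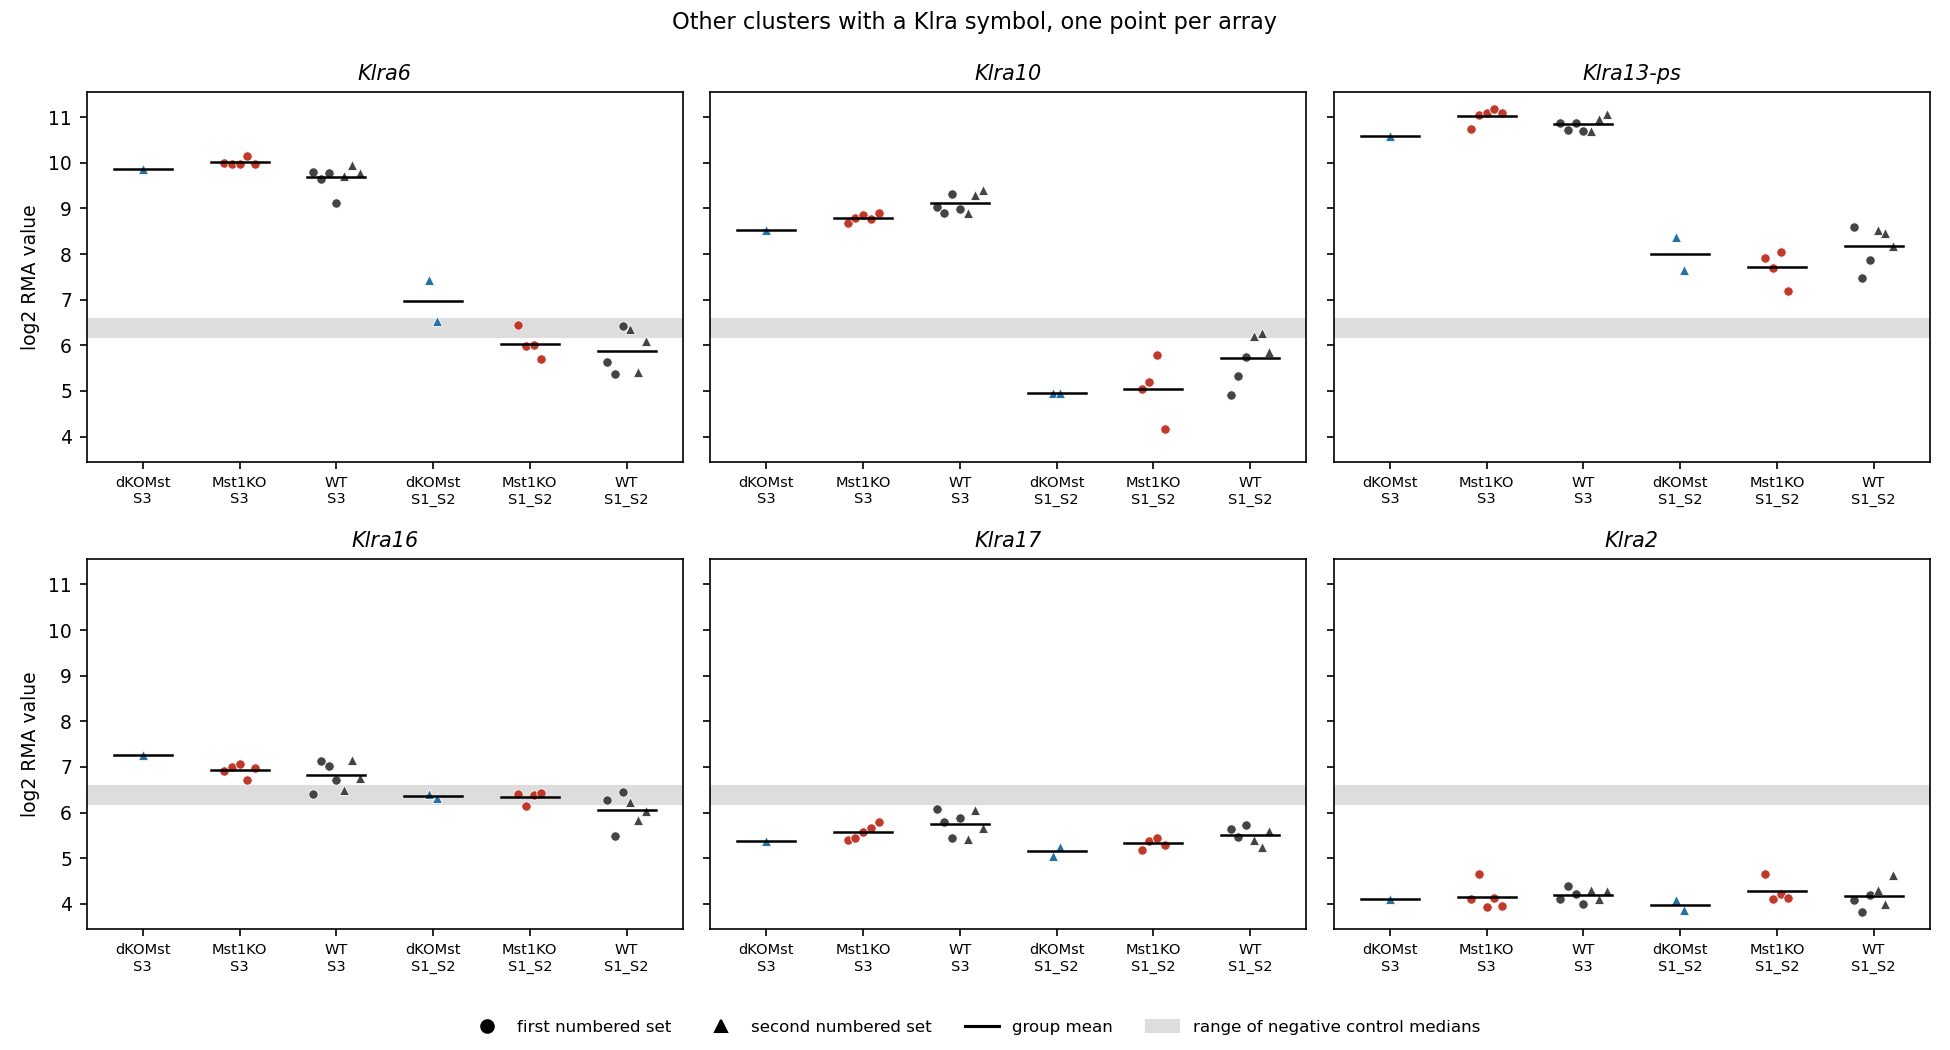
Log2 RMA value of the 6 other clusters with a Klra symbol on each of the 25 arrays, drawn as for the receptor genes above, with the negative control medians as a grey band. Klra6, Klra10 and Klra13-ps are high in all S3 arrays, Klra16 lies in the upper part of the band or above it at S3, and Klra17 and Klra2 stay below it on every array.

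Set in the RefSeq gene order along chromosome 6, Klra17 and Klra2 are the outermost measured members of the Ly49 row, and the 7 measured genes placed between them all rose. Lectin receptor genes elsewhere in the NK gene complex were a list of 20 genes with 19 measured. Of these 16 rose and 0 fell in WT (median 1.60), and 13 rose and 0 fell in Mst1KO (median 1.63). Some of the genes so counted lay at background. Klrb1, called in WT, was not above it on any WT array, and Klrb1a, called in Mst1KO, not on any Mst1KO array. Klrh1, called in both, was above it on 1 of 7 WT S3 and 1 of 5 Mst1KO S3 arrays and on no S1_S2 array. Klre1, whose product forms receptors with other lectin chains, had fitted rises of 5.50 ± 0.20 in Mst1KO and 5.64 ± 0.16 in WT, with 3 of 4 and 2 of 6 S1_S2 arrays above background. Klrc1 (NKG2A) was at least 20.4-fold higher in Mst1KO, where no S1_S2 array was above background, and 4.75 ± 0.41 higher in WT, where 1 of 6 was. Klrd1 (CD94), above background on every array, rose by 4.21 ± 0.34 in WT. Klrb1c, the gene of the gate itself, belongs to this list.

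**Figure D3:**
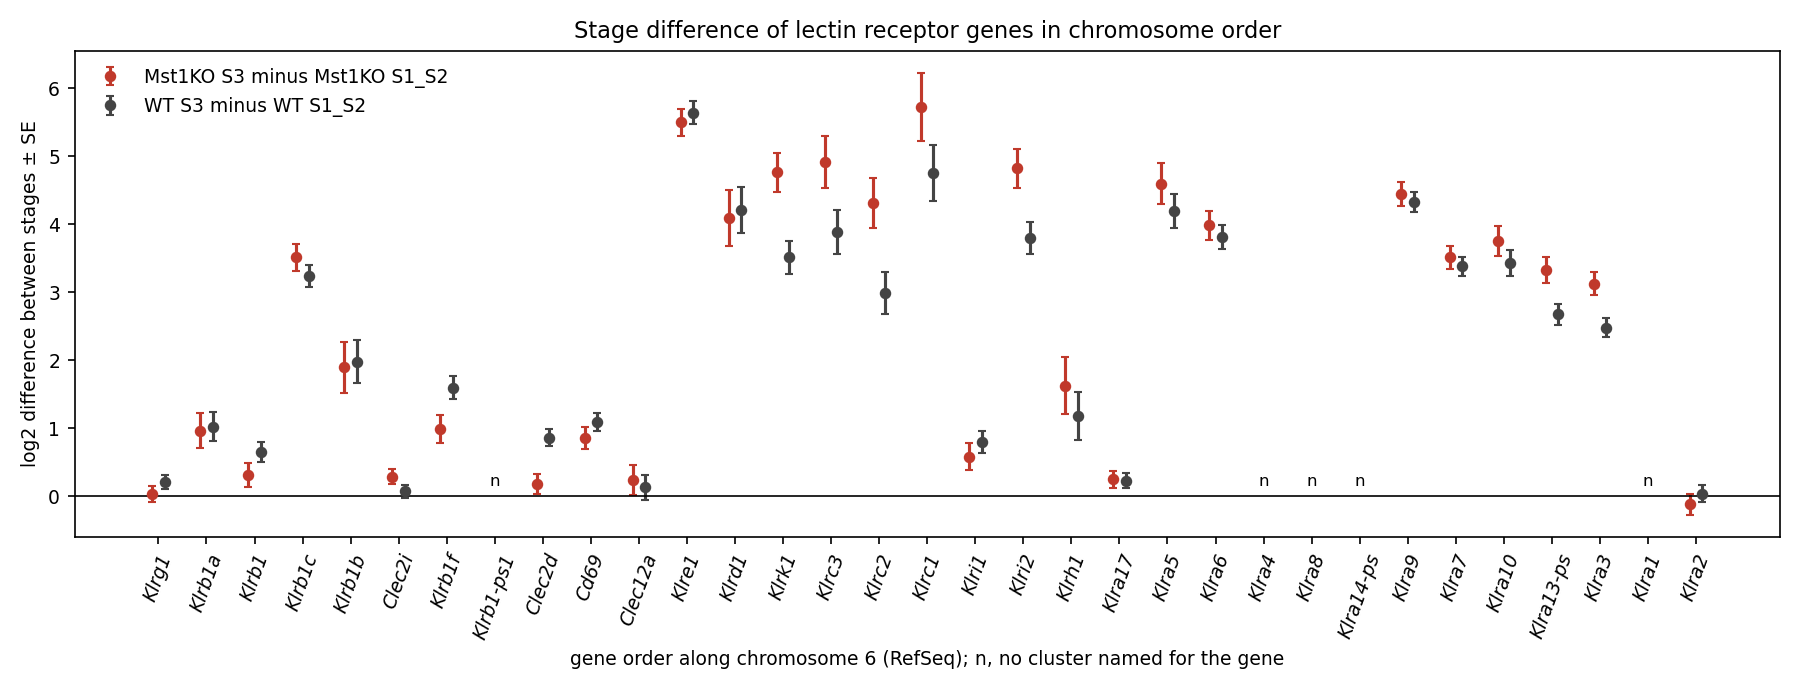
Fitted log2 difference between S3 and S1_S2 (± SE) for lectin receptor genes in their RefSeq order along chromosome 6, with Mst1KO in red and WT in grey and the letter n where no cluster was named. The Ly49 genes from Klra5 to Klra3 lie between 2.48 and 4.59, while Klra17 and Klra2 at the ends of their row lie near 0. Fitted differences of genes at background at S1_S2, such as Klra10 in Mst1KO and Klra6 in WT, are plotted as readings.

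Signalling genes downstream of the receptors moved only in part. Of 10 measured genes of inhibitory signalling, 2 rose and 0 fell in WT (median 0.05), namely Ptpn6, which encodes SHP-1, by 0.58 ± 0.06 and the lipid phosphatase gene Inpp5d by 0.27 ± 0.07. In Mst1KO 1 of 10 rose, Ptpn6 by 0.43 ± 0.07. Of 12 genes of activating signalling, 4 rose and 1 fell in WT (median 0.11) and 4 rose in Mst1KO (median 0.19). Fcer1g, the Fc receptor gamma chain gene, rose by 3.12 ± 0.15 in WT and 2.73 ± 0.19 in Mst1KO, and Tyrobp, the gene of DAP12, by 1.86 ± 0.10 and 2.51 ± 0.12.

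Of 12 measured genes of MHC class I ligands and their loading, 5 rose and 0 fell in each genotype (medians 0.18 and 0.25), with H2-D1 up by 0.46 ± 0.08 in WT and 0.44 ± 0.10 in Mst1KO and H2-K1 up by 0.40 ± 0.06 in WT. Transcription factors named for Ly49 or NK receptor genes gave 8 higher and 6 lower of 22 in WT, and 6 and 6 in Mst1KO. Tbx21, the gene of T-bet, rose by 1.91 ± 0.14 and 1.95 ± 0.17, Runx3 rose by 1.32 ± 0.07 in WT, and Id3 fell by 1.99 ± 0.18 in WT and by 1.56 ± 0.22 in Mst1KO. Of 8 genes of the IL-15, IL-12 and IL-18 axis, 6 rose in WT (median 0.67) and 5 rose and 1 fell in Mst1KO (median 0.63), with fitted differences for Stat4 of 3.33 ± 0.20 and 2.82 ± 0.24 against S1_S2 groups in which 1 of 6 and 1 of 4 arrays were above background.

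Some markers of other cell types also differed between the stages, in both directions. Of 10 NK cell markers 4 rose in WT, and the mean of the list was 7.07 to 7.45 on WT S3 arrays, against 6.61 to 6.81 on WT S1_S2 arrays. Ncr1, the defining NK marker gene, was above background on 4 of 7 WT S3 arrays and on 0 of 6 WT S1_S2 arrays, and Klrg1 was not above background on any array. Of 17 myeloid and dendritic markers 5 rose and 1 fell in WT, with list means of 6.73 to 6.92 and 6.17 to 6.39. The largest of these rises were of genes in more than 1 list. Fcer1g and Tyrobp are also the signalling genes given above, and Fcgr3 is also an NK cell marker here. The B cell list had 1 of 8 higher, the double-positive thymocyte list 1 of 8 higher and 2 lower, the gamma-delta T cell list 1 of 3 lower, and the conventional CD8 T cell list 2 of 8 higher and 4 lower. In Mst1KO, 3 of 10 NK cell and 5 of 17 myeloid markers rose and 0 fell, and Fcer1g, Tyrobp and Fcgr3 again had the largest myeloid rises. The NK cell list averaged 7.05 to 7.39 on Mst1KO S3 arrays, against 6.62 to 6.81 on Mst1KO S1_S2 arrays, and Itga2 rose by 1.94 ± 0.18, while Ncr1 was not above background on any Mst1KO array. The part of other cells in the rise was not tested.

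Loss of Mst1 at S1_S2 moved no member past the limma threshold, where 0.329% of all clusters were called higher and 0.194% lower. Unadjusted limma p-values were under 0.05 for 3 of the 4 genes, with Klra3 and Klra9 lower and Klra7 higher. Of all 22206 clusters, 970 were higher and 951 lower at that level. Klra3 read 6.73, 6.93, 7.22 and 7.48 on the Mst1KO arrays, against 7.50, 7.58, 7.62, 7.72, 7.81 and 8.16 on the WT arrays. Every Mst1KO array lay below every WT array. The fitted difference was -0.54 ± 0.18 (limma adjusted p = 0.251). An exact two-sided permutation test of the means gave an unadjusted p of 0.00476, the smallest that 4 against 6 arrays allow. Such tests pooled the WT arrays of both sets, while all Mst1KO arrays lie in the first. Klra9 was also lower but with overlap, at 6.05 to 7.25 in Mst1KO and 6.84 to 7.85 in WT (difference -0.51 ± 0.18, limma adjusted p = 0.345, exact permutation p = 0.0429). Its first-set WT arrays, at 6.84 to 7.14, lay within the Mst1KO range. Klra7 had 0.56 ± 0.18 (limma adjusted p = 0.231, exact permutation p = 0.3) and Klra5 -0.39 ± 0.32 (limma adjusted p = 0.836, exact permutation p = 0.51). The Klra7 ranges overlapped, at 7.91 to 8.61 in Mst1KO and 7.44 to 8.56 in WT, and the plain group means differed by 0.26. Within the first numbered set the differences of Klra3, Klra9, Klra7 and Klra5 were -0.55, -0.39, 0.54 and -0.28.

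**Figure D4:**
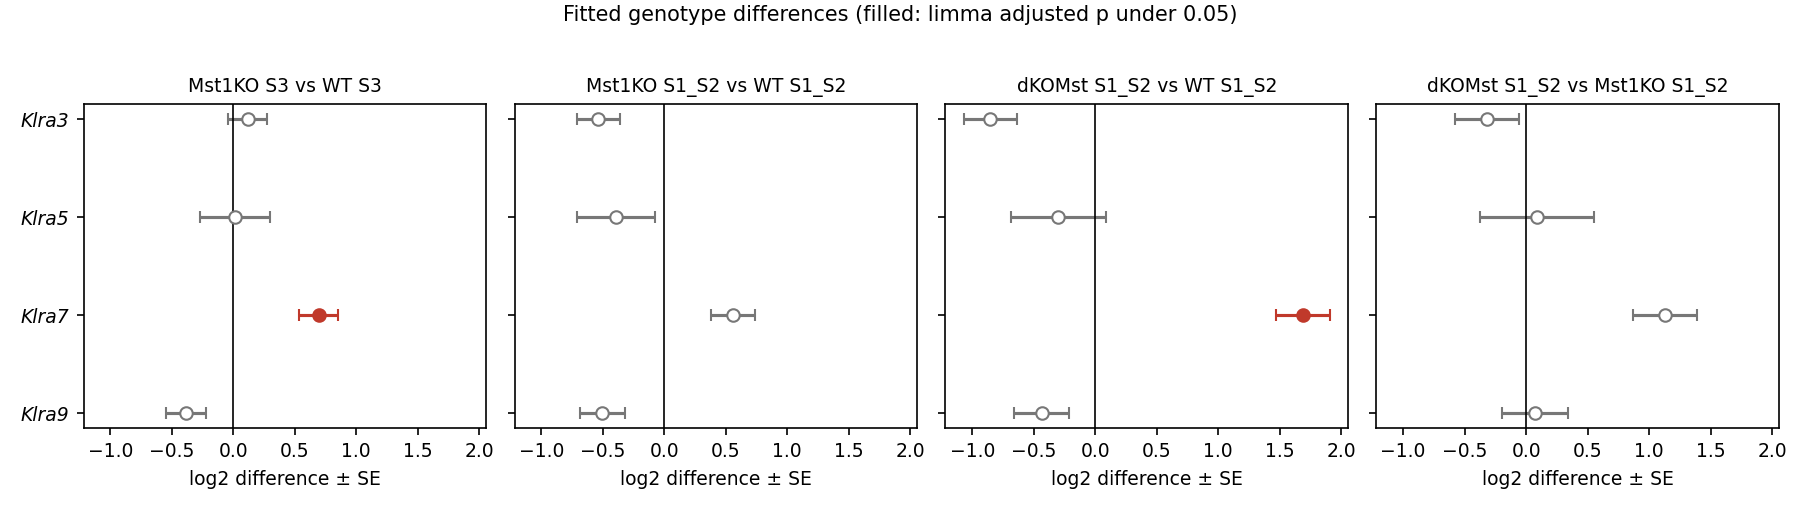
Fitted log2 differences (± SE) between genotypes for Klra3, Klra5, Klra7 and Klra9 in the 4 comparisons named above the panels, with filled red points where the limma adjusted p was under 0.05 and open grey points otherwise. Klra7 lies to the right of 0 in all 4 panels and is called in 2, at 0.69 and 1.69, and no other gene is called.

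At S3 the receptor genes did not move together without Mst1. Klra7 was higher in Mst1KO, 0 members were called lower, and 3.73% of all clusters were called higher and 2.64% lower. Klra7 read 11.44, 11.65, 11.83, 11.87 and 11.98 on the Mst1KO S3 arrays. The first-set WT S3 arrays read 10.89, 10.97, 11.13 and 11.21, below all of these, and the second-set WT S3 arrays read 11.13, 11.82 and 12.04, which overlap them. The fitted difference was 0.69 ± 0.16 (limma adjusted p = 0.0128), a factor of 1.62, and within the first set it was 0.70 ± 0.14 (limma adjusted p = 0.0153).

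The call depended on how the second-set WT arrays entered the fit. For Klra7 the second set was fitted 0.59 ± 0.14 above the first (limma adjusted p = 0.0162), and with no set term the difference was 0.44 ± 0.19 (limma adjusted p = 0.238; exact permutation p = 0.0694 over the 5 and 7 arrays). It also missed the threshold with the set as a random block (0.56, adjusted p = 0.0807), with a term for Y-linked signal (0.57, adjusted p = 0.0502) and on the arrays with such signal alone (0.63, adjusted p = 0.0728).

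Klra9 lay the other way at S3. The Mst1KO arrays, at 10.95 to 11.25, were all below the WT arrays, at 11.32 to 11.81. The fitted difference was -0.39 ± 0.16 (limma adjusted p = 0.157, unadjusted p = 0.0282), a rank of 3975 by p-value among all clusters. The exact two-sided permutation test of the means, which pooled the WT arrays of both sets, gave an unadjusted p of 0.00253 (smallest possible 0.00126). A fit of the 2 groups alone gave -0.47 ± 0.11 (limma adjusted p = 0.0486), and one within the first set -0.47 ± 0.17 (limma adjusted p = 0.13). Over the alternatives tried, the limma adjusted p for Klra9 fell between 0.0319 and 0.284, and was under 0.05 in 2 of 38. Klra3 averaged 10.22 ± 0.16 and 10.19 ± 0.25 and Klra5 11.04 ± 0.18 and 10.97 ± 0.27 in Mst1KO and WT (SD, n = 5 and 7), with differences of 0.12 ± 0.16 and 0.02 ± 0.28. The median difference was 0.07 over the 4 genes and -0.05 over all clusters. None of the 6 other Klra clusters was called; Klra6 had 0.41 ± 0.20 (limma adjusted p = 0.216).

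Of the lists around the receptors, 0 of 10 inhibitory signalling genes, 0 of 12 class I genes and 0 of 8 cytokine axis genes were called at S3 without Mst1. Tyrobp rose by 0.74 ± 0.11 (limma adjusted p = 0.000487), and of the transcription factors Klf2 rose by 0.66 ± 0.19. Eomes was called higher near background, with 3 of 5 Mst1KO and 1 of 7 WT S3 arrays above it (0.67 ± 0.14). Of the other lectin genes Klri2 rose by 0.94 ± 0.27 and Cd69 by 0.81 ± 0.15. The NK cell list had 2 higher and 2 lower, with Itga2 up (0.76 ± 0.17) and Cd160 down (-0.68 ± 0.12). Ncr1, also called lower, was above background on 0 of 5 Mst1KO and 4 of 7 WT S3 arrays. The myeloid list had 1 of 17 higher, which was Tyrobp again, and 1 lower. The double-positive thymocyte list had 2 of 8 higher and 1 lower, and so had the conventional CD8 T cell list, with Cd8b1 among the higher genes of both. The gamma-delta T cell list had 1 of 3 higher. The part of such other cells in the Klra7 value was not tested. At S1_S2 1 of 19 lectin genes was higher, Cd69 by 1.05 ± 0.16, and of the transcription factors Nfil3 was higher (0.94 ± 0.17) and Tox lower (-0.51 ± 0.11).

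The clearest genotype difference of the family was Klra7 in dKOMst S1_S2 cells. It read 10.08 and 9.83 on the 2 dKOMst arrays, against 7.44, 7.76, 7.88, 7.93, 8.28 and 8.56 on the 6 WT arrays. Both dKOMst arrays lay more than 1 log2 unit above the highest WT array, and they exceeded the 95th percentile of their negative controls, which no other S1_S2 reading of the 4 genes did. The fitted difference was 1.69 ± 0.22 (limma adjusted p = 0.000136), a factor of 3.23 and rank 13 by p-value among all clusters. It was 1.70 ± 0.26 within the second set (limma adjusted p = 0.036). At 9.96 ± 0.17 (SD, n = 2) the level still lay below that of the S3 groups, whose lowest reading was 10.89.

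The other members did not follow. Klra3 read 7.41 and 6.56 on the dKOMst arrays, both below the lowest WT array at 7.50 (difference -0.85 ± 0.22, limma adjusted p = 0.06). Its adjusted p fell between 0.0328 and 0.629 over the alternatives tried, and was under 0.05 in 7 of 38. Klra9 and Klra5 had -0.43 ± 0.22 and -0.30 ± 0.39 (limma adjusted p = 0.514 and 0.878). In all, 1 member was called higher and 0 lower, where 0.554% of all clusters were higher and 0.369% lower. The median was -0.37 over the 4 genes and 0.01 over all clusters. Klra6 was above background on both dKOMst arrays, at 6.53 and 7.44, and on none of the WT arrays, where it reached at most 6.43; it was at least 1.51-fold higher, with a limma adjusted p of 0.0857 that missed the threshold (0.031 to 0.845 over the alternatives). Klra10 was not above background on either dKOMst array and on 1 of 6 WT arrays (-0.98 ± 0.29, limma adjusted p = 0.121).

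Other genes moved beside Klra7 in dKOMst S1_S2 cells. Fcer1g was higher by 2.06 ± 0.24, with both dKOMst arrays and 4 of 6 WT arrays above background. Klrb1, another lectin receptor gene, was above background on both dKOMst arrays and on none of the WT arrays, and was at least 1.78-fold higher (limma adjusted p = 1.47e-05). Plcg2, a phospholipase gene of activating receptors, was also called but was not above background on any array of either group. Klrb1c, the gene of the gate marker NK1.1, was lower (-1.18 ± 0.25). Of the transcription factors Klf2 and Foxo1 were higher by 1.11 ± 0.25 and 0.43 ± 0.10 and Eomes, with no WT array above background, was at least 1.53-fold higher (limma adjusted p = 0.0203), and 0 of 22 fell. Of 10 NK cell markers 2 were higher, Eomes and Itgam (0.93 ± 0.18), and the list mean was 7.12 to 7.15 on the dKOMst arrays, against 6.61 to 6.81 on the WT arrays. Each dKOMst array had 7 of the 10 above background, against 5 to 6 on the WT arrays, and Ncr1 and Klrg1 were below it in both groups. Of 17 myeloid markers 3 were higher, with list means of 6.42 to 6.54 and 6.17 to 6.39. They were Fcer1g and Itgam, both already given above, and Lyz2. Of 8 conventional CD8 T cell markers 2 were higher and 1 lower, and 0 of 8 B cell, 0 of 8 double-positive thymocyte and 0 of 3 gamma-delta T cell markers were called. The part of other cells in the Klra7 level was not tested.

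Double and single loss were compared at S1_S2, where the groups lie in different numbered sets and the difference leans on the set term fitted from WT arrays. Klra7 read 10.08 and 9.83 in dKOMst, against 7.91, 8.07, 8.35 and 8.61 in Mst1KO, without overlap. The fitted difference was 1.13 ± 0.26 (limma adjusted p = 0.0717), and 0 members were called, where 0.117% of all clusters were called higher and 0.054% lower. At an unadjusted limma p under 0.05, 1 member was higher, beside 1065 clusters higher and 822 lower out of 22206. With no set term the Klra7 difference was 1.72 ± 0.28 (limma adjusted p = 0.00257). Klra3, Klra5 and Klra9 had -0.32 ± 0.26, 0.09 ± 0.46 and 0.07 ± 0.27 (adjusted p of at least 0.804). Fcer1g was higher in dKOMst than in Mst1KO by 1.96 ± 0.28, with 1 of 4 Mst1KO arrays above background, and Klrb1, with none, by at least 1.64-fold (limma adjusted p = 0.00169 and 0.00517).

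The single dKOMst S3 array has no replicate and was not tested. Klra9 read 10.50 on it, against a mean of 11.60 and a range of 11.32 to 11.81 on the 3 WT S3 arrays of its set, a difference of -1.09. Klra5 read 11.39 against a mean of 10.79 (0.61), Klra7 11.83 against 11.66 (0.17) and Klra3 10.08 against 10.33 (-0.25). Klra9 was the lowest and Klra5 the highest reading of any S3 array for its gene.

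The order of the 6 groups therefore differed between genes within each stage. It follows plain group means, with the WT arrays of both sets pooled and dKOMst S3 as 1 array. Set differences, such as the 0.59 fitted for Klra7, thus enter the order. For Klra9 it was WT, Mst1KO and dKOMst S3, with no overlap between neighbours, then WT, dKOMst and Mst1KO S1_S2, whose ranges overlapped. For Klra7 it was dKOMst, Mst1KO and WT S3, all overlapping, then dKOMst S1_S2, which overlapped neither neighbour, and Mst1KO and WT S1_S2, which overlapped. For Klra3 it was Mst1KO, WT and dKOMst S3, whose ranges overlapped, then WT S1_S2, which did not overlap the next, and Mst1KO and dKOMst S1_S2, which did. For Klra5 it was dKOMst, Mst1KO and WT S3, where the last pair overlapped, then WT, Mst1KO and dKOMst S1_S2, all overlapping.

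Patterns most like each member were ranked by Pearson correlation over the 25 arrays, which share the stage difference. Only single-symbol clusters were ranked, without predicted genes, Rik clones, and genes named Mir, Snor, Olfr or Vmn. The closest to Klra9 were Klra10 (r = 0.99), Il12rb2 (0.98) and Crim1 (0.98), and to Klra3 they were Klra10, Klra13-ps and Klra9 (all 0.98). The closest to Klra5 were Xcl1, Dennd4a and Klrc1 (0.99, 0.98 and 0.98). Klra7 had lower values, with Zyx at 0.97 and Rabac1 and Klra6 at 0.96. Over what the fit of groups and sets left, Klra9 and Klra10 kept a correlation of 0.85, the highest of any ranked cluster with a member. Klra7 correlated best there with Prdm12 (0.78), Klra5 with Slc38a5 (0.84) and Klra3 with Elfn1 (0.77). These are descriptions over 25 arrays, and whether the Klra9 and Klra10 probes share sequence was not tested.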

How the data were processed

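The 25 arrays were analysed from the deposited log2 values, which the authors obtained by RMA, with Affymetrix Expression Console 1.1 named in the submitters' processing notes. Clusters were named through GEO's platform annotation, and 6640 control items of 28846 were left out of the fits. No intensities per probe and no genome build of the array were used. Arrays, not read depth, limit the precision.

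A linear model per cluster (limma 3.58.1, lmFit and eBayes, under R 4.3.3) had 6 group means, an additive term for the numbered set and 18 residual degrees of freedom, and its p-values were adjusted over all 22206 clusters. Differences are on the log2 scale with their SE. Exact two-sided permutation tests of single genes were run beside it. No 2 arrays were identical (correlations 0.966 to 0.993). Replicate numbers follow the order of the samples and pair nothing. A block of S1_S2 and S3 arrays matched by sample number (11 pairs) had a correlation of 0.077.

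The members, the 14 gene lists and the rules were chosen with earlier results of these data known. Named were the members, all Klra clusters, the targeted and sorting genes, up to 3 called genes a list and comparison with the largest difference (or 2 with the smallest p), and the 3 clusters most like each member. The design had counted 5 members, and Klra1 had no cluster. Promoter stretches came from RefSeq (GRCm38.p6), where 4 of 4 measured members matched, and were aligned with Biopython 1.88. Alternatives covered the set term, the arrays and clusters in the fit, normalization, background, weights, variance model and single arrays.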

Additional observations from a re-analysis of the deposited data

Results flagged for a closer look

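Of 40 groups of 4 to 10 arrays examined over the 10 Klra clusters, 3 had an array whose gap to the nearest other reading exceeded the 95% limit of Dixon's test, which chance alone does in about 1 group in 20. Klra6 read 9.13 on WT S3 replicate 4, below 9.65 to 9.95 on the other WT S3 arrays. Klra6 read 10.16 on Mst1KO S3 replicate 4, above 9.96 to 10.01 on the others. Klra2 read 4.66 on Mst1KO S3 replicate 2, against 3.94 to 4.13 on the others, all below background. None of the 4 receptor genes themselves had such an array.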

How the results depend on the processing

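The 4 stage rises in WT and in Mst1KO and the Klra7 rise in dKOMst S1_S2 against WT (1.57 to 1.98, adjusted p 5.64e-05 to 0.036) kept direction and call under every alternative run. For Mst1KO against WT at S3, 0 members were called higher with no set term, the set as a random block, a term for Y-linked signal, arrays with that signal alone, or the exact permutation test, instead of 1. In that comparison 1 member, Klra9, was called lower in a fit of the groups alone, by the permutation test (unadjusted) and with values raised to the negative control median, a setting that called 9347 clusters in place of 1415. At S1_S2 the permutation test (unadjusted) called 2 members lower in Mst1KO, and 1, Klra3, in dKOMst, which was also called with raised values, brighter clusters, array weights and a trended, robust variance. The permutation test was run on the members alone, so its counts cannot be set beside a share of all clusters. For 2 dKOMst against 6 WT arrays its smallest possible p is 0.0357, which any gene without overlap reaches. For dKOMst against Mst1KO 1 member, Klra7, was called with no set term, the random block, the groups alone and the Y term. The cause was not tested. Leaving out 1 array at a time gave 0 to 1 members lower for dKOMst against WT (1 without dKOMst S1_S2 replicate 1, Mst1KO S1_S2 replicate 3 or WT S1_S2 replicate 6, with Klra3 adjusted p of 0.0328, 0.0493 and 0.0373) and changed no other member count.

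Differences near 0, called in no setting, changed sign. Klra5 in Mst1KO against WT at S3 was -0.0671 in the groups alone and in the first set, -0.0239 after repeated quantile normalization, -0.0448 with raised values and -0.0522 with the Y term, and -0.0893 to 0.1187 over single arrays left out. For dKOMst against Mst1KO, Klra5 was -0.0396 with no set term and in the groups alone, -0.0434 with array weights and -0.1523 to 0.333 over single arrays, Klra9 -0.0527 with raised values, -0.0085 with array weights and -0.117 to 0.2835 over single arrays, and Klra3 -0.742 to 0.1058 over single arrays. Klra9 in the stage-by-genotype test was -0.083 in the first set, -0.005 with raised values and -0.0694 to 0.3311 over single arrays. The replicate block by sample number changed no member's call (Klra7 in Mst1KO against WT at S3: 0.69, adjusted p = 0.0147). Against the 95th percentile of the negative controls, 0 WT, 0 Mst1KO and 2 dKOMst S1_S2 readings were above background, in place of the 43 in all.

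Calls over all clusters moved by over 1.5 times in some alternatives: 1904 to 4011 (3760 as reported) for the WT stages, 953 to 3107 (2266) for the Mst1KO stages, 23 to 174 (116) and 475 to 9347 (1415) for Mst1KO against WT at S1_S2 and S3, 0 to 61 (35) for their difference, 33 to 343 (205) and 4 to 450 (38) for dKOMst against WT and Mst1KO. Averaging clusters of a symbol gave nothing new, since each member has 1, and fits within 1 set were run only where it held the groups. With 1 dKOMst S1_S2 array left out, the other was assumed to vary like the other groups.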

Other observations

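The 2 dKOMst S1_S2 arrays did not read alike for every Klra gene. Klra3 read 7.41 and 6.56, Klra6 7.44 and 6.53 and Klra13-ps 8.37 and 7.65 on replicates 1 and 2, while Klra7 read 10.08 and 9.83 and Klra10 4.96 on both. Klrd1, the CD94 chain gene, singled out here after its values were seen, read 9.37 and 9.32 on these arrays, above 7.88 to 8.31 on the Mst1KO S1_S2 arrays and within the 6.68 to 9.94 of the WT S1_S2 arrays, and Klrc1 read 4.61 and 5.37, below the negative control medians.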
